A study of Caenorhabditis elegans with 2 samples.

Results

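The X chromosome sites described here are the 826 peaks of NHR-19 chromatin immunoprecipitation on X whose summit lay over 500 bp from any tRNA gene, of 4560 peaks in all. They are set against the 3465 peaks on the autosomes I to V that met the same distance rule. A further 123 peaks on X and 146 on autosomes lay within 500 bp of a tRNA gene and were left out. On X, the nearest peaks inside that limit lay 251 bp (signal 2337, near xol-1) and 471 bp (signal 163, near M163.11) from a tRNA gene, and the nearest beyond it lay 510 bp (signal 133, near F23A7.1) and 513 bp (signal 181, near ZK154.6).

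All material came from 1 group. It consisted of whole larvae of the worm strain OP791, bleached and then starved at the first larval stage (L1), at an age of 6 h. The strain carries the fosmid transgene wgIs791, in which nhr-19 is fused to TY1, EGFP and 3xFLAG tags, with an unc-119(+) rescue marker in the unc-119 (tm4063) mutant. Chromatin was sheared to 200 to 800 bp and precipitated with an anti-GFP antibody per the description, whereas the antibody field names nhr-19. There were 2 biological replicates and no second condition, so the comparison is between chromosomes of the same worms. Every test takes sites as its units, not replicates, so a p-value says nothing of how cultures vary. Neighbouring sites were counted as independent, although 56.5% of X peaks had another within 5000 bp, so p-values may be too small. The tagged protein comes from a transgene, whole animals mix all cell types, and how deeply the libraries were sequenced cannot be read from the lists.

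NHR-19 belongs to the nuclear hormone receptors, zinc finger transcription factors of which C. elegans has an unusually large family. The X chromosome differs from the autosomes in several ways. It is present in a single copy in males and as a pair in hermaphrodites, it holds few germline-expressed and few essential genes, and it lacks the strong contrast between gene-rich centres and repeat-rich arms that the autosomes have. In hermaphrodites a condensin-like dosage compensation complex lowers X transcription. The complex is loaded at recruitment sites on X that hold a short GC-rich word, known as the MEX motif, and spreads from there.

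Sequences around the summits of some of the strongest X peaks are shown first, most of them picked because they hold that word or a near copy. The 3 strongest X peaks, at puf-9, mdl-1 and serp-1.1, hold neither, and the serp-1.1 sequence is not shown. Each stretch is 101 bases of the plus strand of ce11/WBcel235 (RefSeq genome), centred on the summit and named by the gene of nearest 5′ end. In the 6 that come first, capitals mark the MEX core GCGCAGGG and the word GCGAAGGG, which differs from it by 1 letter, on either strand.
W02H3.3, chrX:11094153-11094253: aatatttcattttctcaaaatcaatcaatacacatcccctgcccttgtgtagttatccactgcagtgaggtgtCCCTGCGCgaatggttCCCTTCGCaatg
K02D3.1, chrX:13700812-13700912: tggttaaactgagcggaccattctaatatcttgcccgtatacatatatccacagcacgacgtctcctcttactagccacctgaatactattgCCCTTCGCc
F20B6.9, chrX:4209231-4209331: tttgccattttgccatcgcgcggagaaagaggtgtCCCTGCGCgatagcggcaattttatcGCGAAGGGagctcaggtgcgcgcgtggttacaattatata
nspc-17, chrX:14525852-14525952: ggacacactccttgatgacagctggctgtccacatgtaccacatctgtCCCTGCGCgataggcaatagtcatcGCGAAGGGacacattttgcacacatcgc
ZK899.6, chrX:9465812-9465912: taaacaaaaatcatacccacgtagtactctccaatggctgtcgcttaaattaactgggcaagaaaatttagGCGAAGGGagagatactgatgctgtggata
Y41G9A.17, chrX:2997053-2997153: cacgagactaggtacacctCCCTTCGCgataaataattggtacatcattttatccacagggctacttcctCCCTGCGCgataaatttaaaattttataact
In the next pair, at genes for basic helix-loop-helix factors, capitals mark the E-box CACGTG, the CG-rich box CCGCCC and the nuclear receptor half-site, searched on either strand as AGGTCA, the variant GGGTCA, the word AGTTCA and also as GGTTCA.
mdl-1, chrX:6742223-6742323: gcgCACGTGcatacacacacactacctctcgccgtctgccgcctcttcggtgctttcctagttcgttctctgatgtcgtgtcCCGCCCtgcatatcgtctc
mxl-3, chrX:13353641-13353741: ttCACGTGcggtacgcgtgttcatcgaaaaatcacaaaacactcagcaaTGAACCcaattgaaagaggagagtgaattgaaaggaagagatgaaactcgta
The strongest X peak of all, upstream of puf-9, held none of the 8 words searched.
puf-9, chrX:5841255-5841355: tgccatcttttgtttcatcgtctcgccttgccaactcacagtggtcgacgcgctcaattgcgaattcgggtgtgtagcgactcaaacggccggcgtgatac

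The strength of a peak is given below as its signal, the authors' own value per peak, which ranks peaks within a list and is not comparable between lists. Among the 826 X peaks the signal ran from 43.6 to 3870.3 with a median of 242. The strongest, at puf-9, a Pumilio-family RNA-binding protein gene, lay 287 bp upstream of the 5′ end. It had a signal of 3870.3, with 2019 in the list of replicate 1 and 1868 in that of replicate 2, and ranked 17 of all 4560 peaks. The next, 78 bp upstream of mdl-1, the gene of a MAD-like factor, had a signal of 2846, with 1402 and 1445 in the lists of replicates 1 and 2. A peak 302 bp upstream of serp-1.1 had 2831, with 1457 and 1401. All 20 of the strongest X peaks were found in both replicates, meaning that each replicate's own list had a summit within 200 bp.

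Of these 20, 6 lay in a one-sided promoter, 0 in a divergent one and 3 in introns. Outside those classes, 2 lay near a non-coding RNA gene and 9 in other intergenic sequence. Among the 20, 14 lay over 1000 bp from any protein-coding 5′ end. The 5 strongest of those distal peaks were nearest to W02H3.3 (signal 2752, 3983 bp away), K02D3.1 (2743, 6045 bp), F20B6.9 (2671, 1796 bp), ZK899.6 (2430.4, 2517 bp) and Y41G9A.17 (2410.3, in its intron, 2649 bp). Their replicate signals were 1417 and 1339, 1382 and 1369, 1368 and 1336, 1265 and 1174, and 1168 and 1215, for replicates 1 and 2 in that order. These 5 are also among the sequences shown above, and each of them holds the MEX core or the word 1 letter away from it. The promoter peaks of the 20 further included those of sdha-1, a succinate dehydrogenase subunit gene (2264), of rpl-11.2, a ribosomal protein gene (2204), and of nspc-17 (2528.5). The others were nearest to mxl-3, the gene of a Max-like factor (2374), F22H10.2 (2351), cest-16, where the summit lies in an intron of mom-1, a Porcupine homologue of Wnt secretion (2192), and F55G7.5 (2121). The last 5 were nearest to gtr-1 (1999), C49F8.15 (1982), scd-1 (1976), F19H6.5 (1952) and once more mdl-1 (1948).

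**Figure D1:**
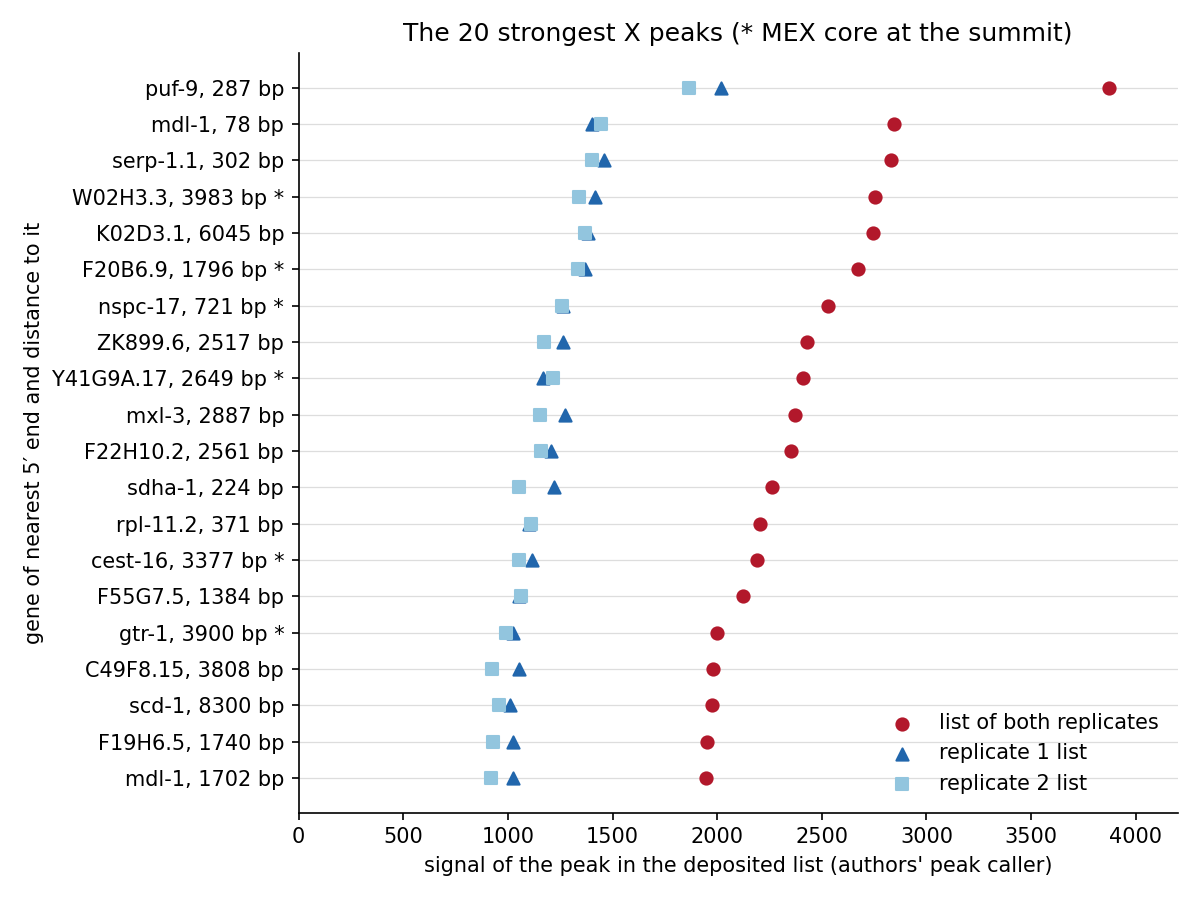
Signal of the 20 strongest X peaks away from tRNA genes in the list of both replicates (circles), the replicate 1 list (triangles) and the replicate 2 list (squares), one line per peak, with the gene of nearest 5′ end and the distance to it. The puf-9 peak stands at 3870.3 and the others run from 2846 down to 1948, and the asterisks mark the 6 peaks with the MEX core within 50 bp of the summit.

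The MEX core, GCGCAGGG on either strand, had the largest log2 odds ratio between X and autosomes of the 8 words searched. It lay within 50 bp of the summit in 13 of 826 X peaks (1.57%, 95% Wilson interval 0.922 to 2.67%) and in 3 of 3465 autosomal peaks (0.0866%, 0.0294 to 0.254%). The log2 odds ratio was 4.04 with an SE of 0.87 (adjusted p = 1.16e-06 over the 8 words, exact Fisher test). Flank windows, equally wide and moved 200 bp to the left of the summit, held it in 0 of the X and 0 of the autosomal peaks. With no flank match, the test of summit against flank between X and autosomes could not show a difference for this word. Failing candidates are ranked peaks that missed the threshold and lay over 500 bp from the summit of any peak that passed. They held the core at the summit in 0.104% on X and 0.0779% on autosomes.

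The 13 X peaks with the core included several of the strongest on X. Their median signal was 1311, against 239 for the other X peaks. They supplied 6 of the 20 and 7 of the 50 strongest X peaks, 9 of the 207 in the highest quartile of X peaks by signal, and 0 of the 206 in the lowest. In 11 of the 13 each replicate's own list had a summit within 200 bp. In 9 of the 13 the nearest 5′ end was over 1000 bp away, and the median distance was 1796 bp. Over all X peaks 56.9% were that far away, with a median of 1374 bp. The distance from core to summit ranged from 0 bp at gtr-1 to 47 bp at R11.3. The cores are shown with their surroundings, each as 30 bases of ce11/WBcel235 read on the strand that gives the core in capitals, in order of signal.
W02H3.3, chrX:11094215-11094244, minus strand: gggaaccattcGCGCAGGGacacctcactg
F20B6.9, chrX:4209255-4209284, minus strand: ttgccgctatcGCGCAGGGacacctctttc
nspc-17, chrX:14525889-14525918, minus strand: tattgcctatcGCGCAGGGacagatgtggt
Y41G9A.17, chrX:2997112-2997141, minus strand: ttaaatttatcGCGCAGGGaggaagtagcc
cest-16, chrX:6296537-6296566, plus strand: atttacatttgGCGCAGGGggtcaccatag
gtr-1, chrX:806663-806692, plus strand: gtgcgattatcGCGCAGGGgtgtttgttgc
col-185, chrX:13514547-13514576, plus strand: atacctttatcGCGCAGGGatattgaaatc
ins-39, chrX:1345045-1345074, plus strand: caatgtcattcGCGCAGGGcagctgagccc
T24D8.6, chrX:2364888-2364917, minus strand: aaaataattaaGCGCAGGGatatatagtac
R04E5.9, chrX:8811094-8811123, minus strand: gaacacgcgacGCGCAGGGagagggacgca
WBGene00020828, chrX:1837881-1837910, plus strand: gccactcggccGCGCAGGGcacggaaatgt
gcc-1, chrX:3159715-3159744, minus strand: cggtaaacaacGCGCAGGGcgttcgagcgg
R11.3, chrX:16202508-16202537, minus strand: aacaatcttttGCGCAGGGgtgcaagggca
The signals fell into a strong and a weak set. The first 9, down to T24D8.6, had signals of 2752 to 880, and the other 4 had 402, 357, 234 and 175. Of the replicates' own thresholded lists, only that of replicate 2 had a summit at the gcc-1 peak (123), and only that of replicate 1 at the R11.3 peak (114). Near ins-39, an insulin-like peptide gene, the peak had a signal of 1170 with 570 and 582 in replicates 1 and 2, and near col-185, a collagen gene, it had 1311 with 688 and 605.

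Not every copy of the core lay at a peak. Away from tRNA genes X holds 78 copies of it (4.40 per Mb), and 26 of them (33.3%, 95% Wilson interval 23.9 to 44.4%) lay within 200 bp of a peak summit. The autosomes hold 233 copies (2.82 per Mb), and 12 of them (5.15%, 2.97 to 8.78%) lay that close to one. The log2 odds ratio was 3.16 with an SE of 0.54 (p = 1.62e-09, exact Fisher test), a test added after the first results were seen. The share per autosome went from 0 of 64 copies on V to 6 of 46 (13.0%) on III. The 26 copies on X belonged to 22 peaks with signals from 122 to 2752 and a median of 1025, of which 8 were among the 20 strongest of X. Another 7 copies on X and 26 on autosomes lay within 200 bp of a failing candidate and of no peak.

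**Figure D2:**
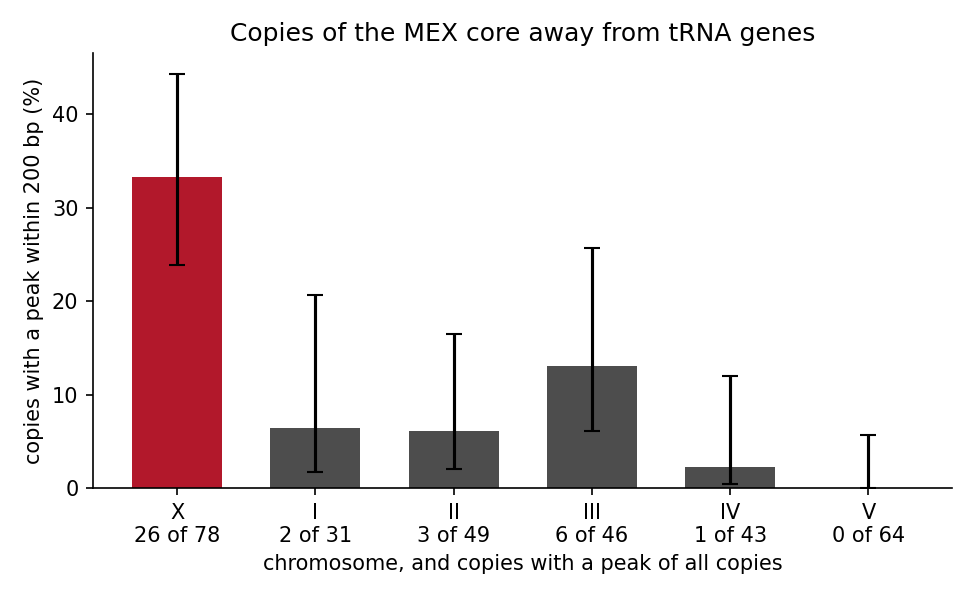
Share of all MEX core copies over 500 bp from tRNA genes that lie within 200 bp of a peak summit, by chromosome, as bars with 95% Wilson intervals, and the counts under each bar. X stands at 26 of 78 copies, and the 5 autosomes run from 0 of 64 to 6 of 46.

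One near copy of the core also differed between X and autosomes. Of the 24 words that differ from the core by 1 letter, 1 differed between X and autosomes after adjustment over the 24. This word, GCGAAGGG, lay within 50 bp of the summit in 13 X peaks (1.57%) and in 7 autosomal peaks (0.202%). The log2 odds ratio was 2.94 with an SE of 0.66 (adjusted p = 2.22e-04 over the 24, exact Fisher test), a search added after the first results were seen. Its flank windows held it in 0 X peaks and 2 autosomal peaks. The core, this word or both were present in 22 X peaks (2.66%) and 10 autosomal peaks (0.289%), and 4 X peaks held both. Of the 20 strongest X peaks 8 held at least one of them, whereas 0 of the 100 strongest autosomal peaks did. The near copy was picked by its difference between X and autosomes in these same peaks. The joint counts are therefore partly set by that choice and are no separate support. The core alone was in 6 of those 20 X peaks and 0 of those 100 autosomal peaks. The peaks with the near copy alone included those nearest to K02D3.1 (2743), ZK899.6 (2430.4), C41A3.2, where the summit lies in an exon of the polyketide synthase gene pks-1 (1881), and hlh-29 (1676).

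The other words had log2 odds ratios of smaller size, although the shares of the splice acceptor word, the GAGA repeat and the CG-rich box lay further apart in percentage points. The E-box CACGTG lay at 73 X summits (8.84%), against 8.05% of autosomal summits (adjusted p = 0.549, exact test), while 1.21% of X flanks and 1.93% of autosomal flanks held it. The GAGA repeat GAGAGA lay at 24.0% of X and 26.9% of autosomal summits (adjusted p = 0.152, exact test), against 9.56% and 8.95% in their flanks. Among promoter peaks its share was 25.4% on X and 21.9% on autosomes. Among the other peaks it was 23.1% on X and 32.4% on autosomes, and these shares were not tested. The nuclear receptor half-site lay at 13.6% of X and 13.4% of autosomal summits (adjusted p = 0.865, exact test). In the flanks its share was 14.04% on X and 12.8% on autosomes, and 14.2% of windows placed evenly along X held it, so its share at X summits was close to that of the surrounding sequence. The GATA site TGATAA lay at 9.56% and 8.48% (adjusted p = 0.448, exact test), CCGCCC at 3.995% and 5.74%, and the forkhead site TGTTTAC at 3.15% and 1.99% of X and autosomal summits (adjusted p = 0.0973 for each of the last pair). These p-values are Fisher's and are adjusted over the 8 words. In the lists of single replicates CCGCCC passed both times, at a log2 odds ratio of -0.90 in replicate 1 and -0.84 in replicate 2, and TGATAA passed in replicate 2 (0.55) but was at -0.025 in replicate 1.

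TTTCAG, the word of worm splice acceptors, was rarer at X summits. It lay within 50 bp of 21 X summits (2.54%) and of 6.75% of autosomal summits, with a log2 odds ratio of -1.44 and an SE of 0.33 (adjusted p = 2.83e-06, exact Fisher test). It was also rarer in the flanks of X peaks, at 13.4% against 19.4% on autosomes, and in evenly placed windows, at 16.97% against 20.6%. Between X and autosomes, summit against flank did not pass for this word (adjusted p = 0.334) or for any of the other 7 (adjusted p from 0.300 to 1, exact Fisher test). In a window of 25 bp on either side of the summit the X to autosome ratio was -0.52 on the log2 scale and did not pass (adjusted p = 0.426, exact test). The strongest X peak with each of the commoner words lay at mdl-1 for the E-box and CCGCCC (2846), ZK899.6 for GAGAGA (2430.4), mxl-3 for the half-site (2374), sdz-19 for TGATAA (1743), F09E10.1 for TGTTTAC (1541) and mdl-1 once more for TTTCAG (927).

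X peaks were spread along the chromosome differently from autosomal peaks. On X 393 of 826 peaks (47.6%, 95% Wilson interval 44.2 to 50.99%) lay in the central 50% of the chromosome, against 2191 of 3465 (63.2%, 61.6 to 64.8%) on autosomes, where each autosome had 60.3 to 66.3%. The log2 odds ratio was -0.92 with an SE of 0.11 (p = 2.79e-16, exact Fisher test). Failing candidates were placed the other way, with 50.5% of those on X and 46.3% of those on autosomes in the centre. The difference of X from autosomes was therefore larger in peaks than in candidates, by -1.17 ± 0.13 on the log2 scale (p = 4.85e-20 by the likelihood ratio test of the interaction, p = 6.59e-20 by Zelen's exact test, added later).

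With each chromosome cut into 10 equal stretches, X ran from 27.7 peaks per Mb in the leftmost stretch to 69.98 per Mb in the eighth, with 57.0 and 54.2 per Mb in the last pair. In the sixth stretch X had 38.4 per Mb and the autosomes together had 61.4, their highest value. The outermost stretches of the autosomes had 26.6 and 34.5 per Mb. Full 1 Mb bins held 16 to 76 peaks on X (coefficient of variation 0.27, 17 bins) and 10 to 88 on autosomes (0.42, 80 bins). Over the whole chromosome X held 46.6 peaks per Mb, above the 41.97 per Mb of all autosomes and under the 53.3 per Mb of III. X has 154 protein-coding genes per Mb and the autosomes 209. The share that passed the threshold was not shown to differ. Of all ranked peaks off tRNA genes 21.4% passed, with 826 of 3713 (22.2%) on X and 3465 of 16294 (21.3%) on autosomes, with a log2 odds ratio of 0.08 and an SE of 0.06 (p = 0.191, exact Fisher test).

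**Figure D3:**
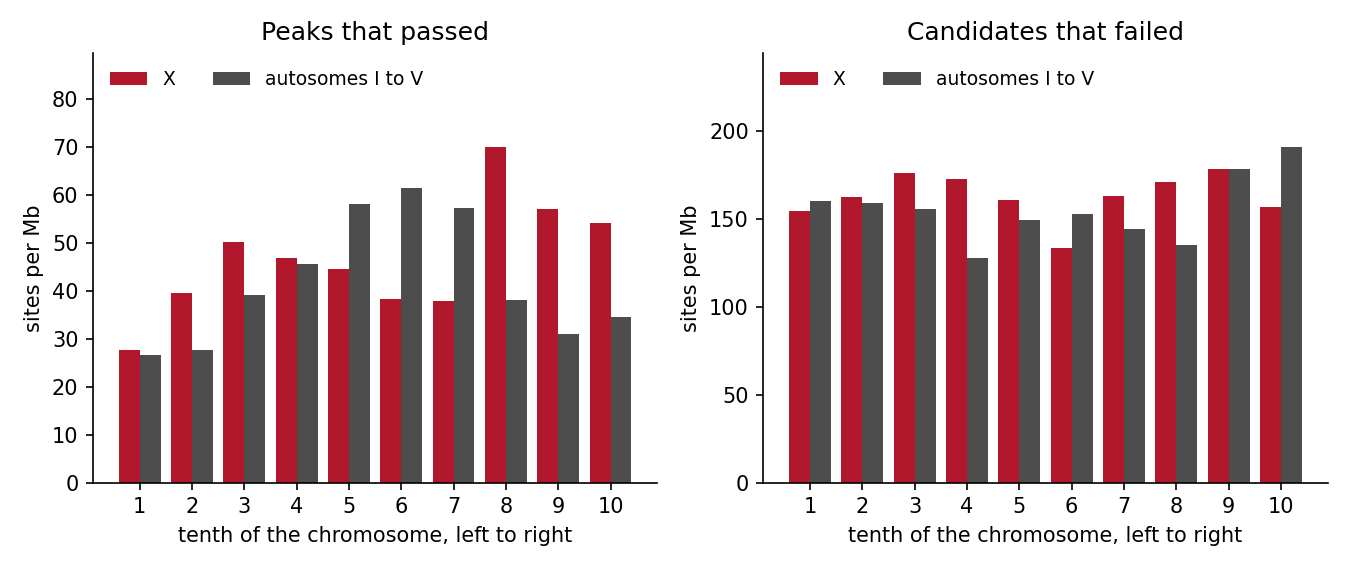
Sites per Mb in each of 10 equal stretches of the chromosome, left to right, for peaks that passed the threshold (left panel) and candidates that failed it (right panel), on X (red) and on autosomes I to V together (grey). Passing X peaks are densest in the eighth stretch (69.98 per Mb) and autosomal ones in the sixth (61.4 per Mb). Failing candidates run from 133 to 178 per Mb on X and from 128 to 191 on autosomes.

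X peaks lay less often in divergent promoters and more often far from genes. A divergent promoter here is sequence within 1000 bp upstream to 500 bp downstream of protein-coding 5′ ends on both strands. It held 23 X peaks (2.78%) and 593 autosomal peaks (17.1%), with a log2 odds ratio of -2.82 and an SE of 0.31 (adjusted p = 6.07e-33 over 6 classes, exact Fisher test). Such sequence is itself scarce on X, with 0.150 Mb against 2.63 Mb on autosomes. Per Mb of it there were 153 X peaks and 225 autosomal peaks. In the other 5 classes X had more peaks per Mb, with 81.6 on X and 62.6 on autosomes in one-sided promoters, 94.8 and 61.7 near non-coding RNA genes, and 46.01 and 37.96 in other intergenic sequence. The last of these classes makes up 26.7% of X and 18.9% of autosomal sequence. Failing candidates lay in divergent promoters in 0.623% on X and 2.93% on autosomes.

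One-sided promoters held 300 X peaks (36.3%) and 35.9% of autosomal peaks, exons 27 (3.27%) and 2.97%, and introns 173 (20.9%) and 20.4%. None of these 3 classes passed the test (adjusted p = 0.840 for each, exact Fisher test). The class near non-coding RNA genes takes peaks at most 500 bp from such a gene that lay in no promoter, exon or intron. It held 88 X peaks (10.7%) and 6.55% of autosomal peaks. The log2 odds ratio was 0.77 with an SE of 0.19 (adjusted p = 2.08e-04, exact Fisher test). Other intergenic sequence held 215 X peaks (26.03%) and 17.1% of autosomal peaks, with a log2 odds ratio of 0.78 and an SE of 0.13 (adjusted p = 3.08e-08, exact Fisher test). Failing candidates in the class near non-coding RNA genes made up 7.34% on X and 4.84% on autosomes, and intergenic ones 23.2% and 17.5%. The likelihood ratio test of the interaction passed for no class, so no class was shown to differ more between X and autosomes in peaks than in failing candidates. The log2 interaction terms ran from -0.59 ± 0.46 for divergent promoters to 0.49 ± 0.32 for exons (SE). In the strongest 50% of peaks the class near non-coding RNA genes missed the threshold (log2 odds ratio 0.69, adjusted p = 0.0588, exact test).

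**Figure D4:**
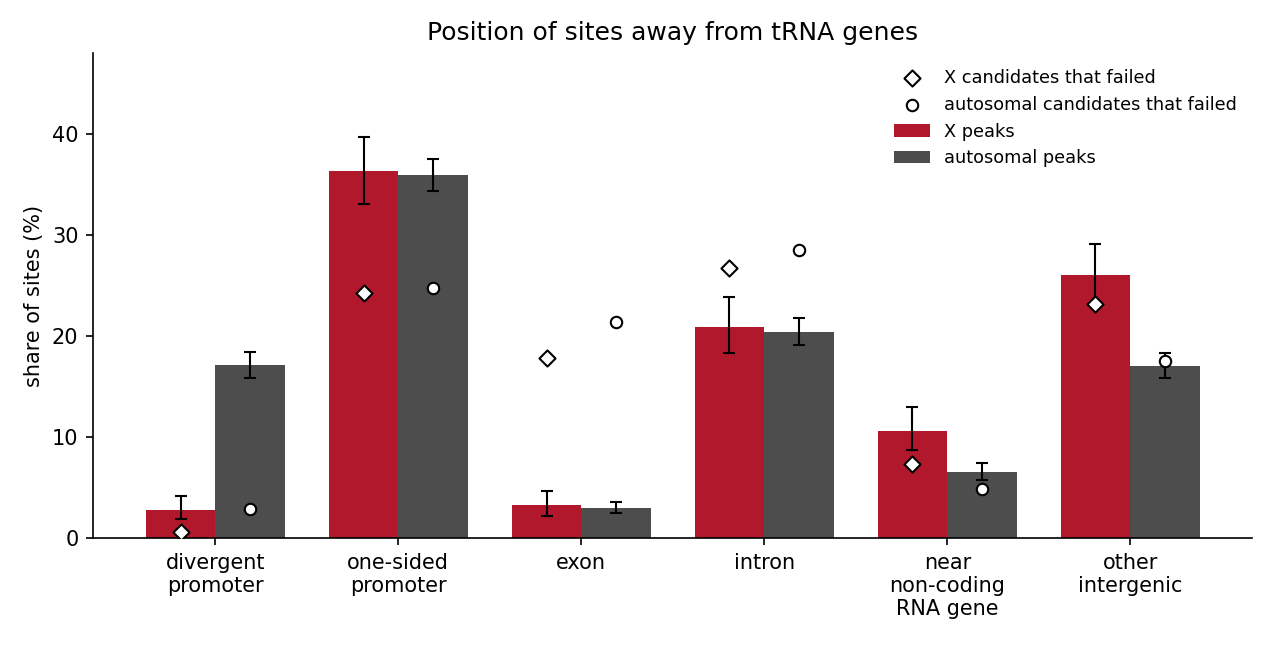
Share of peaks in each position class on X (red) and autosomes (grey), in percent, with 95% Wilson intervals, and the shares of failing candidates as open symbols. The bars stand apart for divergent promoters (2.78% on X, 17.1% on autosomes), sequence near non-coding RNA genes and other intergenic sequence, and overlap for one-sided promoters, exons and introns.

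The median distance to the nearest protein-coding 5′ end was 1374 bp for X peaks and 694 bp for autosomal peaks. Over 1000 bp away lay 470 X peaks (56.9%) and 43.4% of autosomal peaks, and within 200 bp lay 15.98% and 26.96%. Failing candidates differed less, with medians of 1788 bp on X and 1602 bp on autosomes.

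Over peaks of every class, non-coding RNA genes of the general ncRNA biotype were near 196 X peaks (23.7%) and 14.6% of autosomal peaks. X has 2520 such genes and the autosomes 5244. The small nucleolar RNA genes, which guide RNA modification, were near 5 X peaks (0.605%) and 3.52% of autosomal peaks, with 33 such genes on X and 313 on autosomes. The strongest X peak near one, at D2021.6, is the sdha-1 promoter peak. A peak of 1318, with 706 and 599 in replicates 1 and 2, lay 257 bp upstream of the microRNA gene cel-mir-54. The rpl-11.2 promoter peak (2204) lay 371 bp upstream of rpl-11.2 and nearer, at 126 bp upstream, to the long intergenic non-coding RNA gene linc-78.

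X peaks were somewhat weaker than autosomal peaks. A signal above the median of all peaks off tRNA genes was found for 365 X peaks (44.2%) and 51.4% of autosomal peaks, with a log2 odds ratio of -0.42 and an SE of 0.11 (adjusted p = 6.96e-04 over 3 tests, exact Fisher test). The median signal was 242 on X and 273 on autosomes, a ratio of 0.887. In the list of replicate 1 the medians were 164 and 179, and in that of replicate 2 they were 144 and 155, so X was the lower in each. Without divergent promoter peaks, a comparison added after the first results were seen, the log2 odds ratio was -0.25 with an SE of 0.12 (p = 0.0307, exact Fisher test). With the replicate 2 list alone the difference did not pass (log2 odds ratio -0.20, adjusted p = 0.248, exact test). Among promoter peaks 51.4% on X and 59.3% on autosomes were above the median (adjusted p = 0.0128, exact test), and among other peaks 39.6% and 42.4% (adjusted p = 0.277). X supplied 14 of the 100 strongest peaks, 43 of 250, 85 of 500, 152 of 1000 and 345 of 2000, and 19.2% of all of them.

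Each replicate's own list had a summit within 200 bp at 510 X sites (61.7%) and at 67.7% of autosomal sites. The log2 odds ratio was -0.38 with an SE of 0.12 (p = 0.00118, exact Fisher test). All sites counted came from the list made from both replicates. The share thus tells only whether a site was also in each replicate's own thresholded list. This share followed signal closely. It was 100% on X and 99.9% on autosomes in the highest quartile of all peaks by signal, 96.6% and 97.3% in the next, 58.3% and 60.6% in the one after that, and 9.24% and 9.10% in the lowest. Within these quartiles, compared after the first results were seen, no difference passed (Fisher's exact test p from 0.540 to 1).

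Another peak lay within 5000 bp of 56.5% of X peaks and 55.4% of autosomal peaks, and 43.5% and 44.6% stood alone. Runs of 4 or more peaks, each within 5000 bp of the next, numbered 36 on X with 215 peaks (26.03% of X peaks) and 126 on autosomes with 662 (19.1%), and these shares were not tested. The longest run of any chromosome, with 15 peaks, covers 14533 bp at R03E9.2 and mdl-1 (chrX:6735782-6750315). Its signals ran from 203 to 2846 with a median of 555, and 14 of the 15 peaks were found in both replicates. The longest autosomal run had 12 peaks. The second run on X, with 13 peaks over 12256 bp, lies at mxl-3 and C49F8.15, with signals of 149 to 2374 and a median of 633, and 12 of its peaks were found in both replicates. The E-box lay within 50 bp of 7 of the 15 and 5 of the 13 summits, and of 8.84% of all X summits. The genes mdl-1 and mxl-3 encode factors of the Myc, Max and Mad family, whose members are known to bind E-boxes. A further run of 11 peaks, with signals of 62.2 to 1602, lies between WBGene00017309 and ZK470.4, and 6 of its peaks were found in both replicates. The E-box lay within 50 bp of 1 of its 11 summits. These E-box counts per run were not tested.

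**Figure D5:**
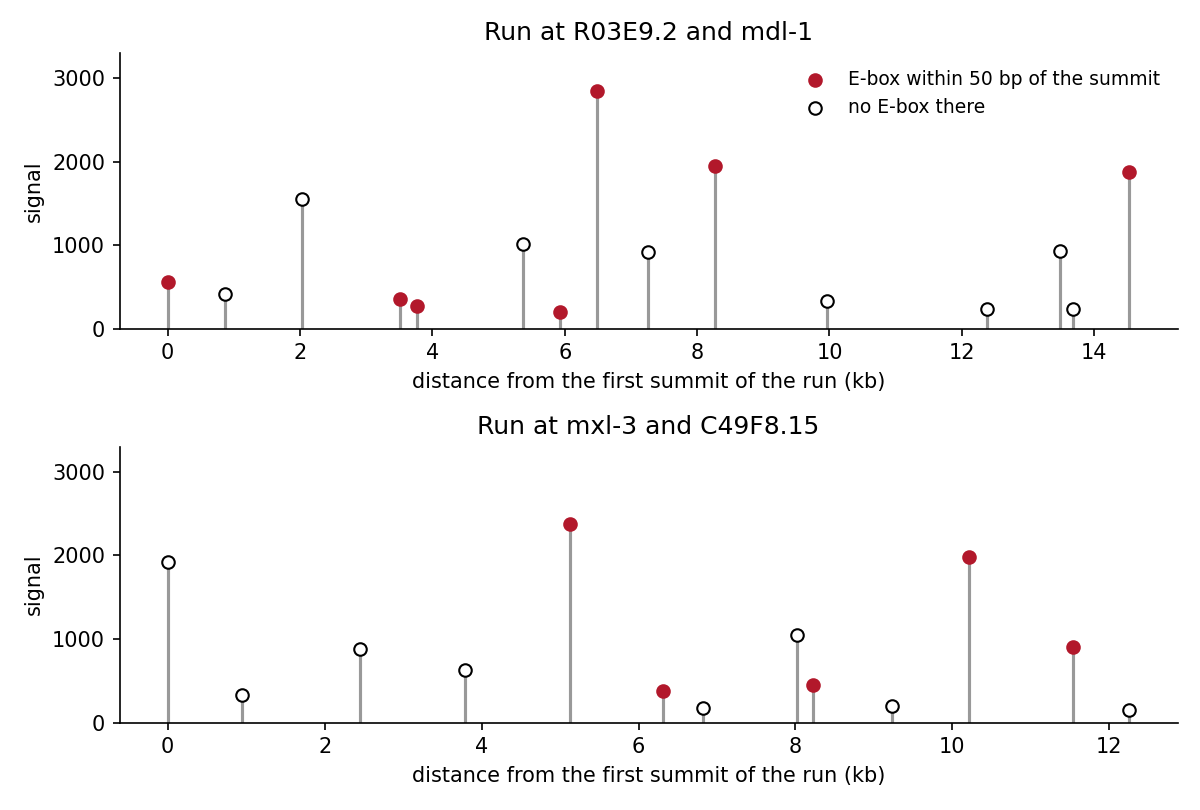
Signal of each peak in the 2 longest runs on X against the distance of its summit from the first summit of the run, in kb, with peaks that hold an E-box within 50 bp of the summit filled in red. The upper run has 15 peaks up to 2846, 7 of them with an E-box, and the lower one 13 peaks up to 2374, 5 of them with an E-box.

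The densest 100 kb of X (chrX:13300001-13400000) held 25 peaks, against at most 19 in any autosomal bin of that size, and 3 of them were in promoters. It contains the mxl-3 run, peaks at sir-2.2, a sirtuin gene, and the F02C12.3 promoter peak (1567). The next bins, at 6.2 and 14.5 Mb, held 16 peaks each. The first of them (chrX:6200001-6300000) has the promoter peak of bca-1, a carbonic anhydrase gene (1825), a run at W05H9.4 with a highest signal of 1209, and the mom-1 intron peak with the MEX core. The second (chrX:14500001-14600000) has the nspc-17 peak with the MEX core and a run of 8 peaks at nhr-3 and lron-1 with a highest signal of 783.

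Fewer of the eligible genes on X had a peak in the promoter window. Of 6591 protein-coding genes with a peak or a failing candidate there, 41.6% had a peak. The share was 332 of 972 (34.2%, 95% Wilson interval 31.2 to 37.2%) on X and 2410 of 5619 (42.9%, 41.6 to 44.2%) on autosomes, with a log2 odds ratio of -0.53 and an SE of 0.10 (p = 3.09e-07, exact Fisher test). Without the genes whose window held a divergent promoter peak or candidate the log2 odds ratio was 0.01 (p = 0.936, exact test), a comparison added after the first results were seen. Of all 2731 protein-coding genes on X 12.2% had a promoter peak, against 13.98% on autosomes.

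Gene groups of X are described by counts against that 12.2%, with no test, and their signals are the highest in the promoter window. Nuclear hormone receptor genes had a promoter peak in 9 of 27 on X and 27 of 247 on autosomes. The highest were nhr-48 (674), nhr-1 (670.0) and nhr-3 (572), with 361 and 322, 353 and 322, and 293 and 310 in replicates 1 and 2. The other 6 were nhr-35, nhr-32, nhr-17, nhr-27, nhr-25 and nhr-14, with 126 to 491. Muscle genes had one in 7 of 14 on X and 14 of 37 on autosomes, led by the myosin light chain gene mlc-2 (376), the actin gene act-4 (365) and the troponin T gene mup-2 (349). Of the genes that count X chromosomes or act in dosage compensation, 3 of 6 on X and 3 of 8 on autosomes had one. They were ceh-39, a homeobox X-signal element (539, with 286 and 262 in the replicates), sdc-2, which triggers hermaphrodite dosage compensation (319, with 186 and 154), and fox-1, an RNA-binding X-signal element (141, with no peak in either replicate's own list). The peak near xol-1, the X-signal switch gene of sex determination, had a signal of 2337 but lay 251 bp from a tRNA gene and is not among the 826.

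Counts in the smaller groups of X were 2 of 3 vacuolar ATPase genes (vha-12, 1011, and vha-15, 340), 2 of 5 chaperone genes (hsp-3, the ER chaperone BiP, 1936, and dnj-14, 824) and 1 of 2 ribosomal protein genes (rpl-11.2). They were 2 of 5 insulin pathway genes (ins-39, 1170, and the kinase gene akt-2, 320) and 2 of 4 cell cycle genes (lin-15B, 390, and cdk-11.2, 301). In the list named germline and P granule they were 2 of 6 (puf-9 and meg-3, 214), and of heterochronic genes 1 of 5 (lin-14, 340.2). A place in a list does not show where a gene acts. Of 23 lipid genes 4 had a promoter peak, led by dhs-25 (754), dhs-30 (234) and dhs-28 (189). Other groups are given with both counts. Neuropeptide genes had 0 of 32 on X and 6 of 70 on autosomes, chemoreceptor genes 0 of 33 and 20 of 1331, and potassium channel genes 0 of 20 and 6 of 53. Ligand-gated channel genes had 1 of 28 (glr-6, 625) and 0 of 78, collagens 1 of 30 (col-166, 158) and 16 of 146, homeobox genes 1 of 27 (ceh-39) and 4 of 68, and synaptic genes 2 of 9 (dnj-14 and the liprin gene syd-2, 425) and 8 of 26. A count of 0 of 32 allows a share of up to 9.38%, one of 0 of 33 up to 9.09% and one of 0 of 20 up to 15%, for counting error only. Each limit is 3 divided by the number of genes. Few of these genes had any peak or failing candidate in the window. On X these were 8 of 32 neuropeptide, 4 of 33 chemoreceptor and 1 of 20 potassium channel genes. On autosomes they were 19 of 70, 210 of 1331 and 15 of 53.

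Single genes with the most peaks nearest to them were mdl-1 with 12, ZK470.4 and mxl-3 with 8 each, and nhr-3 and F57G12.1 with 7 each. The heterochronic gene lin-14, whose mRNA is the target of lin-4 microRNA, had 6 with signals of 178 to 340.2, 2 of them in its promoter windows. The schnurri homologue sma-9 and scd-1 had 6 each and 0 of those in a promoter window, with highest signals of 1382 and 1976. In all, the 826 peaks had 573 nearest genes.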

How the data were processed

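The deposited files are 8 peak lists on ce11, per the labels. A peak's signal is the value of the authors' peak caller. For ranked peaks the authors deposited −log10 values of the irreproducible discovery rate (IDR), and thresholded lists hold peaks at an IDR of at most 0.01. The sources used here do not name the peak caller, aligner or control, and no read counts are in the lists. The list made from both true replicates was used, and ranked peaks over 500 bp from its summits were the failing candidates. Genes came from Ensembl release 115 and sequence from the RefSeq WBcel235 genome.

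X and autosomal shares were set against each other by the 2-sided exact test of Fisher, and p-values were adjusted by the Benjamini-Hochberg method per family of results. For log2 odds ratios each cell was raised by 0.5 (Python 3.11.15, scipy 1.17.1). A peak took the first class that held it, in the order of the class plot. The Fisher and likelihood ratio tests were checked on simulated independent sites, at a base share well above those of the MEX core. Rare words and clustered sites were not covered by that check. Named genes followed a rule: the 20 strongest X peaks, the 3 highest genes per list, the 5 strongest distal peaks, the strongest peak per word, the densest bins and the tRNA neighbours. The X sites, 18 gene lists and 8 words were chosen with earlier results of these data known. In the ranked lists 16 columns name no replicate and were not used. Intervals cover counting error only.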

Additional observations from a re-analysis of the deposited data

Results flagged for a closer look

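The share of peaks in the central 50% of the chromosome stood out because the contrast of peaks with failing candidates differed between X and autosomes by its own test. On X 47.6% of peaks and 50.5% of failing candidates lay there, and on autosomes 63.2% and 46.3%. The difference was -1.17 ± 0.13 on the log2 scale (SE; p = 4.85e-20 by the likelihood ratio test, p = 6.59e-20 by Zelen's exact test). Under the 14 alternatives it ran from -1.37 to -0.92 and passed in each of them. Gene density along the chromosomes was not part of this test, and its part in the result was not tested.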

How the results depend on the processing

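All values are log2 odds ratios of X over autosomes unless stated otherwise. The MEX core at summits passed under each of its 17 alternatives (0.87 to 6.85). The lowest value came with 1 mismatch allowed, a setting added after the data were seen. Such words lay at 9.69% of X and 5.57% of autosomal summits, against 1.82% and 1.59% of their flanks. The highest value, with an SE of 2.09, came in the strongest 50% of peaks, where the autosomal share was 0%. The central 50% (-1.13 to -0.80), divergent promoters (-2.88 to -1.91) and other intergenic sequence (0.65 to 1.05) passed under each of their 14, and the copies of the core near a peak under each of their 15 (2.67 to 3.82). In the strongest 50% of peaks the class near non-coding RNA genes gave 0.69, both replicates -0.59 and GAGAGA 0.093, and none of these passed. The share passed was -0.13 there and did not pass either. Only peaks were cut by signal and failing candidates were kept whole, so this value is no check on the share passed. At an IDR of 0.05 the values were -0.031 for one-sided promoters, -0.085 for exons, -0.34 for the signal of promoter peaks (no longer passing), -0.33 for GAGAGA (now passing) and -0.022 for the half-site. Without chromosome I the half-site was -0.033, and without III it was -0.044 while the share passed was 0.14 (now passing). Without IV one-sided promoters were -0.016. Without V the share passed was -0.0098, and GAGAGA (-0.32), CCGCCC (-0.66) and TGTTTAC (0.83) passed. Windows of 25 bp gave -0.71 for GAGAGA (now passing) and -0.52 for TTTCAG (no longer passing), and windows of 100 bp gave -0.67 for CCGCCC (now passing). The interaction passed for 2 words in the pooled list, GAGAGA and the E-box, and for 1 class, other intergenic, with promoters 2000 bp long. Within quartiles of signal, highest first, both replicates gave -0.95, -0.42, -0.14 and 0.045, and genes without divergent promoters gave 0.010, both chosen after the data were seen. Leaving out a replicate gave ranges of -0.071 to 0.050 for the share passed, -0.29 to -0.20 for the signal of all peaks and -0.44 to -0.27 for that of promoter peaks (neither passing without replicate 1), 0.039 to 0.060 for other peaks, -0.90 to -0.84 for CCGCCC (passing in both) and -0.025 to 0.55 for TGATAA (passing without replicate 1). The cause of these changes was not tested. No paired analysis was possible because there is 1 group. The lists hold no depth, so what depth limits cannot be read from them.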
